A study of Mus musculus with 9 samples.

Results

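The 10 genes described here stood low in liver RNA and were picked for large diet changes in these same data, so their diet differences are given as a description, with no test. They are Stap1, Themis, Gpr110 (now Adgrf1), Cspg5, Slc22a27, Ly6d, Rad51l1 (now Rad51b), Bik, Cgref1 and Peg3. They were matched by symbol in the count tables, where all 10 were found among 23337 genes, and all 10 were among the 12587 genes that passed a filter on low counts. A gene that passes through the group where it is high is bound to differ, so the number that passed carries no information about diet.

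RNA of whole livers was sequenced from wild-type mice taken in the fed state, 3 libraries for each of 3 diets that began at 8 weeks of age and lasted 12 weeks. The HFD_HDCA mice ate a 60% high-fat diet with 0.25% hyodeoxycholic acid (HDCA), a secondary bile acid. The HFD mice ate that high-fat diet without HDCA, and the ND mice ate a normal diet. The labels give separate samples and nothing on cages, litters or sex, so the spread between libraries may include technical spread, and the study's question is what HDCA does to fatty liver, PPARα and lymphocytes of the liver.

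The 10 proteins belong to different systems. Stap1 and Themis encode adaptor proteins that act below antigen and cytokine receptors of blood cells, Themis being needed for the maturation of T cells in the thymus. Gpr110, Cspg5, Ly6d and Slc22a27 encode surface proteins: an adhesion G protein-coupled receptor, a chondroitin sulfate proteoglycan best known from brain, a lipid-anchored Ly6 protein that marks early B-lineage cells and keratinocytes, and a rodent transporter of the organic ion family. Rad51l1 encodes a protein of homologous recombination, Bik a BH3-only protein that promotes apoptosis, Cgref1 a growth regulator with calcium-binding EF-hands, and Peg3 an imprinted zinc-finger protein expressed from the paternal allele.

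Promoter sequence, the 250 bases before the annotated start in RefSeq GRCm38.p6, was found for 6 of the 10 genes. A stretch is shown for 5 of them, which differ in their diet pattern: Rad51l1 (higher on both high-fat diets) at chr12:79297032-79297281 on the plus strand, Gpr110 (lower on both) at chr17:43270097-43270346 on the plus strand, Themis and Slc22a27 (highest on HFD) at chr10:28668145-28668394 on the plus strand and chr19:7966028-7966277 on the minus strand, and Peg3 (highest on HFD_HDCA) at chr7:6730420-6730669 on the minus strand. Each is written 5′ to 3′ on the gene's strand, and capitals mark matches to any of 6 short motifs searched on both strands.
Rad51l1: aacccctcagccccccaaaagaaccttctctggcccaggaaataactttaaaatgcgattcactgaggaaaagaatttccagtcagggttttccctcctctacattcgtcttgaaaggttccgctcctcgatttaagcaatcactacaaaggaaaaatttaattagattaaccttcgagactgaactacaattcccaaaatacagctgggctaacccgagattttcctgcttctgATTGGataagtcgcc
Gpr110: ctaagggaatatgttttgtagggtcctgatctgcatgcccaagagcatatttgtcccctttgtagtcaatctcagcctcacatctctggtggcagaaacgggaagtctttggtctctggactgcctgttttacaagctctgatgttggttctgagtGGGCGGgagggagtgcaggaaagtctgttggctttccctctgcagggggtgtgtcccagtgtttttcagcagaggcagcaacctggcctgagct
Themis: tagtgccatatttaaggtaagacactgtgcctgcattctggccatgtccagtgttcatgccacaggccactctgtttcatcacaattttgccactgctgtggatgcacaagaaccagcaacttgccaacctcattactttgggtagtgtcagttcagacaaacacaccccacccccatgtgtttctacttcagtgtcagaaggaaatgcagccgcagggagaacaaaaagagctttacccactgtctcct
Slc22a27: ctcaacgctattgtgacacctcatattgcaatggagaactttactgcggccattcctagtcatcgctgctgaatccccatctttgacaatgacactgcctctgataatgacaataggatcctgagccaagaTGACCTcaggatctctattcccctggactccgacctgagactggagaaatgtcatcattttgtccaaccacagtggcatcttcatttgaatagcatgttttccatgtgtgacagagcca
Peg3: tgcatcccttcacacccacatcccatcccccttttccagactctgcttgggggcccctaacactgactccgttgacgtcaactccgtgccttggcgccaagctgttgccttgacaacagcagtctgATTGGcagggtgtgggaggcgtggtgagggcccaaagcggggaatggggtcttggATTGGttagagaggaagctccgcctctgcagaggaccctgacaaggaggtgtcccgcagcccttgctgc

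The motif searched for STAT5 was TTCNNNGAA, and that for nuclear receptors was the half-site AGGTCA. The TATA box was spelled TATAAA and the E box CACGTG. The GC box was spelled GGGCGG, and the CCAAT box by its own letters. No match overlapped another in the stretches shown. Of 32851 promoters of this length, 33.8% hold a CCAAT box, 32.7% a GC box, 14.0% a half-site, 12.4% a TATA box, 7.02% a STAT5 site and 6.02% an E box. Rad51l1 had a CCAAT box in reverse (ATTGG) whose first base lies at -15 from the start, and Peg3 had one at -124 and another at -69. Gpr110 had a GC box at -94, Slc22a27 a half-site in reverse (TGACCT) at -119, and Cgref1 GC boxes at -79 and -28. The Themis window held no match to these letters. Base composition also differed, with 62.4% G and C in Cgref1 and 60.4% in Peg3, 52.0% in Gpr110, 48.0% in Themis, 46.0% in Slc22a27 and 42.8% in Rad51l1, beside a median of 52.4% over all promoters.

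Depth on genes was 17059063 to 17966782 reads for HFD_HDCA, 17299316 to 20509203 for HFD and 16994353 to 18731596 for ND. Levels are given in CPM, reads of a gene relative to the TMM-scaled library total, on which 3 reads, the limit that a count of 0 allows, are 0.152 to 0.182 CPM. The summed CPM of 8 hepatocyte markers was 119000 to 133200 in HFD_HDCA, 114000 to 138500 in HFD and 99600 to 109300 in ND. A pair of libraries stood apart: HFD 1 in the clock output gene Dbp (85.8 CPM, its replicates 2.27 and 1.41) and HFD_HDCA 1 in the acute phase gene Saa1 (3371 CPM, its replicates 23.4 and 38.0). In whole liver, fewer cells of a type and less RNA per cell cannot be told apart.

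The members' mean over all 9 libraries lay between the 12th and the 44.1st percentile of the tested genes, whose median was 16.77 CPM, so "low-level" held for all 10. In their highest diet group Rad51l1, Peg3 and Gpr110 stood above that median, at the 60.9th, 57.2nd and 56.3rd percentile of genes ranked by their highest group. In its lowest group Stap1 stood at the 0.278th percentile, Cspg5 at the 0.675th and Cgref1 at the 0.794th. Peg3, Bik and Gpr110 kept more reads, standing at the 27.9th, 20.8th and 15.7th percentile in their lowest group.

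In HFD against ND, edgeR's quasi-likelihood test called 4 of the 10 higher and 2 lower, in a comparison where it called 0.477% of all genes in each direction and 0.953% in either. In HFD_HDCA against HFD it called 3 higher and 1 lower, beside 1.67% and 1.73% of all genes and 3.4% in either direction. In HFD_HDCA against ND it called 6 higher and 1 lower, beside 3.65% and 2.82% and 6.47% in either direction. In HFD against ND all libraries of 1 group lay above all of the other for 8 members, 6 higher and 2 lower, beside 20.1% of all genes (10.9% higher, 9.2% lower). The same held for 8 members in HFD_HDCA against HFD, 5 higher and 3 lower, beside 22.4% (11.3% higher, 11.1% lower), and for 7 in HFD_HDCA against ND, 6 higher and 1 lower, beside 33.9% (17.8% higher, 16.1% lower). Since the members were chosen on these contrasts, the counts say only how they were picked. The FPKM tables moved the split of all calls, to 101 higher and 64 lower in HFD against ND, where the counts gave 60 and 60. In HFD_HDCA against HFD they gave 137 higher and 358 lower, where the counts gave 210 and 218. The comparisons share libraries: HFD serves as the first group in one and the second in another, and ND is the second group of a pair, so their values are set side by side and are not independent. The number of members called in HFD against ND fell to 2 without ND 1 and to 3 without HFD 2 or without ND 3, and stood at 7 without HFD_HDCA 1.

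**Figure D1:**
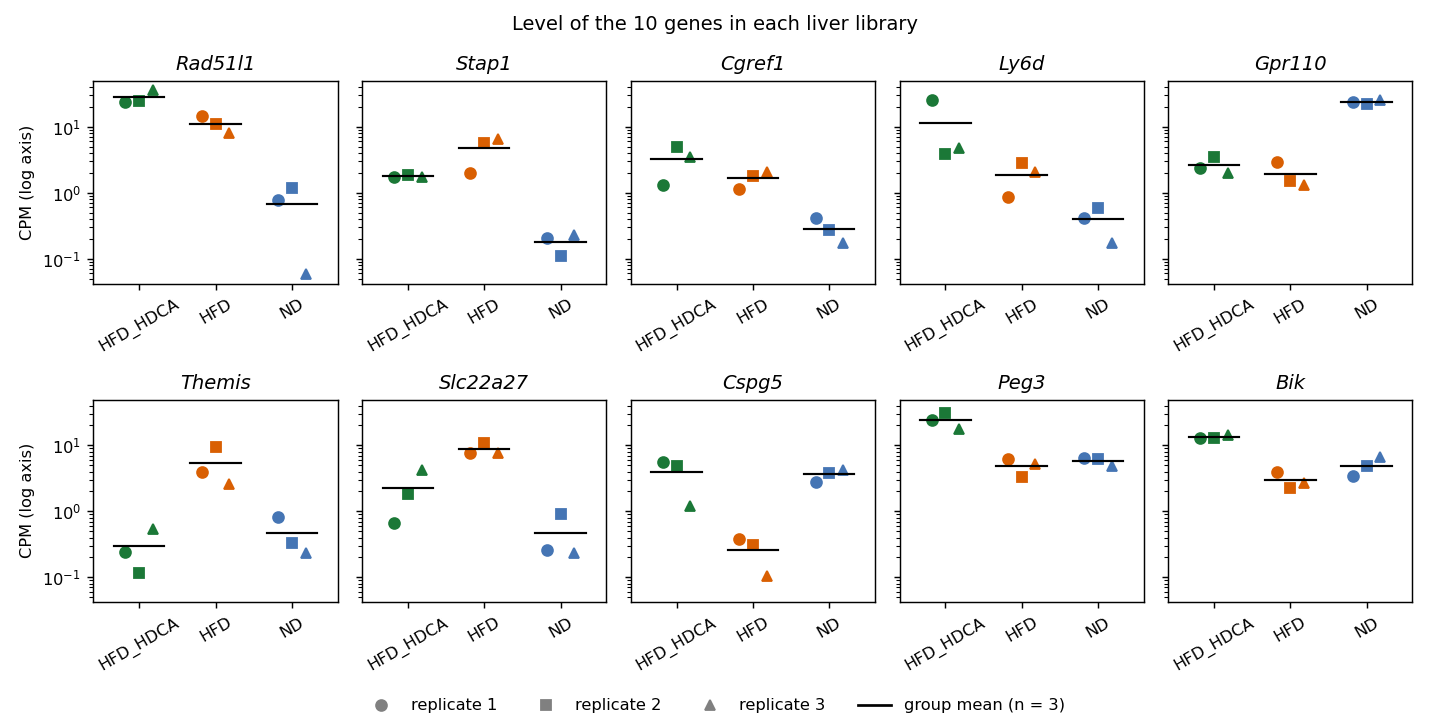
Level (CPM, log axis) of each of the 10 genes in every library, with HFD_HDCA left, HFD in the middle and ND right; marker shape gives the replicate number and the black line the mean of 3 libraries. The upper row holds the genes whose high-fat groups both part from ND (Rad51l1, Stap1, Cgref1 and Ly6d above it, Gpr110 below it), and the lower row those in which HFD or HFD_HDCA stands alone.

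Stap1, on chromosome 5 from 86071828 to 86103993, was almost without reads on the normal diet. It stood at 1.76, 1.86 and 1.74 CPM in HFD_HDCA, at 2.004, 5.71 and 6.46 CPM in HFD, and at 0.208, 0.108 and 0.231 CPM in ND, the ND values resting on 4, 2 and 4 reads. By counts the 3 groups did not overlap, whereas by FPKM HFD_HDCA 2 (1.404) exceeded HFD 1 (1.390). The HFD_HDCA libraries were tightly grouped between the others, and HFD 1, the library apart in its clock genes, was the lowest of its group. HFD averaged 4.72 ± 2.38 CPM and ND 0.183 ± 0.065 CPM (SD, n = 3 each), so HFD was 25.9-fold higher, or 4.65 ± 0.52 on the log2 scale (SE). Summed reads gave a ratio of 26.2 with a 95% Clopper-Pearson interval of 14.0 to 55.3, which covers counting error only, as do all such intervals here. HFD_HDCA was 9.78-fold above ND (log2 fold change 3.25 ± 0.54, SE) and 2.64-fold below HFD (-1.40 ± 0.39, SE).

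Themis, on chromosome 10 from 28668395 to 28882749, was high on the high-fat diet alone. Its CPM was 0.242, 0.116 and 0.541 in HFD_HDCA, 3.90, 9.45 and 2.55 in HFD, and 0.833, 0.325 and 0.231 in ND. Every HFD library exceeded every other library, while HFD_HDCA and ND overlapped. HFD_HDCA averaged 0.300 ± 0.218 CPM against 5.30 ± 3.65 in HFD (SD, n = 3 each), 17.7-fold lower, or -4.12 ± 0.68 on the log2 scale (SE). HFD stood 11.4-fold above the ND mean of 0.463 ± 0.324 (log2 fold change 3.48 ± 0.63, SE), a value that ran from 2.76 to 4.21 over 9 fits without 1 library each. HFD_HDCA against ND gave -0.64 ± 0.82 (SE), and 0.09 without ND 1. An antisense pseudogene, 4930519F09Rik, overlaps 2868 exonic bases of Themis and had 0 reads in all 9 libraries.

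Sums of lymphocyte markers are set beside Themis and Stap1. These sums are small, and the part of lymphocyte numbers in either gene's difference was not tested. The 11 T and NK cell markers summed to 9.33, 7.73 and 7.76 CPM in HFD_HDCA, 6.45, 4.24 and 4.85 in HFD, and 4.79, 5.20 and 6.94 in ND. HFD 2, the library with the most Themis, had the lowest sum of all 9, and the HFD_HDCA libraries, low in Themis, had the 3 highest. Among the defining markers Cd3e was at 0 reads in HFD_HDCA 1 and Gzma in HFD 2. The 8 B cell markers summed to 10.7, 8.66 and 7.16 CPM in HFD_HDCA, 5.85, 3.23 and 6.88 in HFD, and 5.72, 4.66 and 3.70 in ND, with Pax5 at 0 reads in ND 2 and Ebf1 in ND 3. Stap1 was highest in HFD, the group whose B cell sums overlapped those of ND, and macrophage markers summed to 889, 565 and 473 CPM in HFD_HDCA, 583, 188 and 1119 in HFD and 567, 602 and 504 in ND. Of the 7 T and NK cell and 5 B cell markers that passed the filter, edgeR and DESeq2 each called 0 in all 3 comparisons, with up to 2 and up to 3 above before adjustment (p under 0.05) and 0 below.

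**Figure D2:**
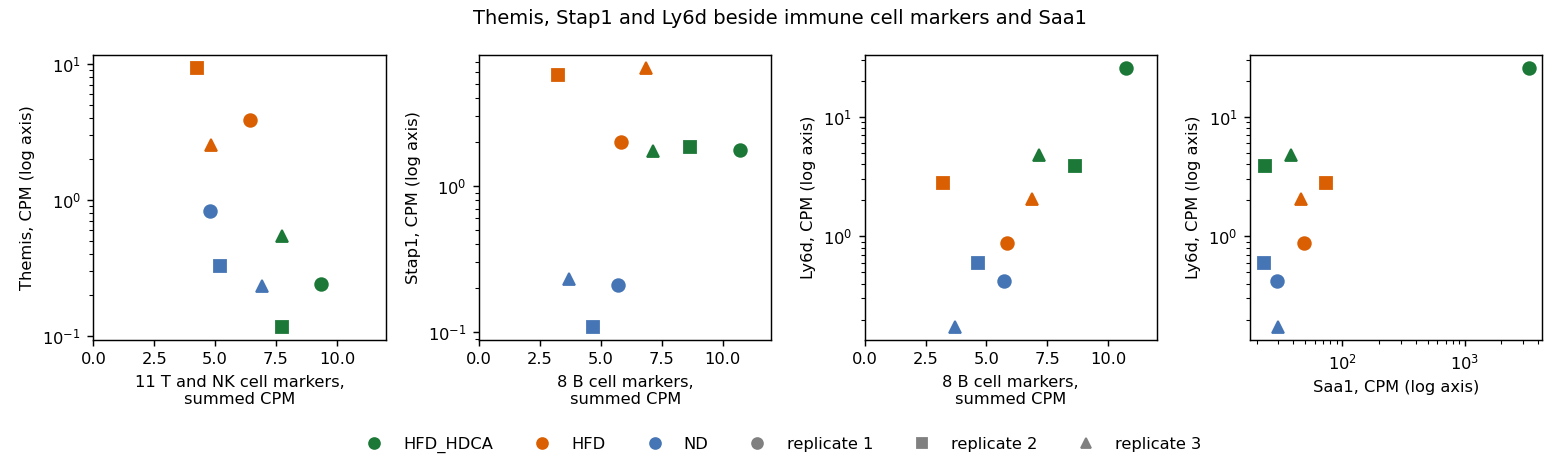
CPM of Themis, Stap1 and Ly6d (vertical, log axes) in each library against the summed CPM of T and NK cell or B cell markers, and, at the right, against the CPM of the acute phase gene Saa1 (log axis); colour gives the diet and shape the replicate. The HFD library with the most Themis has the lowest T and NK cell sum (4.24 CPM), and the library with the most Ly6d (25.7 CPM) has the highest Saa1 (3371 CPM).

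Among other genes of T cell receptor signalling, a list chosen with results of these data known, edgeR called 0 of 13 tested in HFD against ND (3 above and 1 below before adjustment, p under 0.05, 0 by DESeq2) and 0 of 13 in HFD_HDCA against HFD (1 above, 0 by DESeq2). In HFD_HDCA against ND 1 of 13 was called, lower, by edgeR and by DESeq2 (2 above and 1 below before adjustment, p under 0.05). This was Plcg1, a phospholipase that many receptors use, at 25.6, 32.5 and 29.96 CPM in HFD_HDCA against 43.9, 46.2 and 44.7 in ND. Its log2 fold change was -0.61 ± 0.11 (SE, edgeR adjusted p = 0.012), and the call ended without ND 1 (0.0548). Among 13 genes of B cell receptor signalling edgeR called 0 in all 3 comparisons, with 0, 4 and 3 above and 0 below before adjustment (p under 0.05) in HFD against ND, HFD_HDCA against HFD and HFD_HDCA against ND. DESeq2 called 1 of them, higher in HFD_HDCA than in HFD. The median log2 fold change of that list in HFD_HDCA against HFD was 0.43, beside -0.002 over all genes.

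Gpr110, on chromosome 17 from 43270347 to 43324406, was the member that was high on the normal diet only. It stood at 2.36, 3.49 and 1.99 CPM in HFD_HDCA, 2.92, 1.52 and 1.302 in HFD and 23.5, 21.8 and 25.4 in ND. The ND libraries lay close together and far above the other 6, which overlapped each other. HFD averaged 1.91 ± 0.88 CPM and ND 23.6 ± 1.80 CPM (SD, n = 3 each), so HFD was 12.3-fold lower, or -3.62 ± 0.29 on the log2 scale (SE), which ran from -4.06 to -3.41 over the 9 fits without a library. HFD_HDCA was 9.02-fold below ND (-3.17 ± 0.28, SE) and differed from HFD by 0.45 ± 0.31 (SE), a 1.36-fold ratio of means.

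Another adhesion receptor gene went the other way on HFD. Of 17 adhesion receptor genes tested, Gpr98 (now Adgrv1), a very large receptor best known from hair cells of the ear, was called in HFD against ND. It stood at 6.55, 11.4 and 9.69 CPM in HFD against 1.301, 1.73 and 1.45 in ND, and rose with a log2 fold change of 2.62 ± 0.30 (SE, edgeR adjusted p = 0.00437). It was also the only one of the 17 called in HFD_HDCA against HFD, at 2.30, 2.03 and 3.85 CPM in HFD_HDCA, where it fell by 1.76 in log2 (SE 0.28, adjusted p = 0.0126). Both calls held in all 9 fits without a library. In HFD_HDCA against ND edgeR and DESeq2 called 0 of the 17, with 1 above and 1 below before adjustment (p under 0.05).

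Cspg5, on chromosome 9 from 110243783 to 110262576, was nearly lost on the high-fat diet and present on both other diets. Its CPM was 5.51, 4.94 and 1.203 in HFD_HDCA, 0.379, 0.303 and 0.104 in HFD, and 2.81, 3.74 and 4.28 in ND, with 7, 6 and 2 reads behind the HFD values. All HFD libraries lay below all others, and HFD_HDCA 3 was the lowest outside HFD, so HFD_HDCA overlapped ND. HFD_HDCA was 14.8-fold above HFD (log2 fold change 3.86 ± 0.62, SE, summed-read ratio 14.9 with an interval of 8.82 to 27.2). HFD stood 13.8-fold below ND (-3.75 ± 0.62, SE). HFD_HDCA against ND gave 0.11 ± 0.47 (SE), with a sign that turned to -0.23 without HFD_HDCA 1 and to -0.09 in the FPKM tables. On log2(FPKM + 0.1) the HFD differences were smaller, 2.28 against HFD for HFD_HDCA and -2.37 against ND for HFD, since the pseudocount exceeds the HFD levels of 0.081, 0.061 and 0.022 FPKM. The 12 related genes tested act in building or modifying chondroitin sulfate chains, and none encodes a core protein like that of Cspg5. Among them edgeR called 0 in all 3 comparisons, with at most 1 in each direction before adjustment (p under 0.05). DESeq2 called 1, higher in HFD_HDCA than in HFD.

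Slc22a27, on chromosome 19 from 7864389 to 7966027, depended on how reads were counted. By counts it stood at 0.666, 1.80 and 4.21 CPM in HFD_HDCA, 7.75, 10.96 and 7.76 in HFD and 0.260, 0.921 and 0.231 in ND. The authors' Cufflinks tables gave 0.856, 1.52 and 2.47 FPKM in HFD_HDCA, 4.32, 5.55 and 4.398 in HFD and 1.37, 1.63 and 1.84 in ND. In both, every HFD library exceeded every other library. By counts the ND mean was lowest, though HFD_HDCA 1 (0.666) lay below ND 2 (0.921), and by FPKM the ND mean was level with that of HFD_HDCA. HFD over ND was 18.7-fold by counts (log2 fold change 4.204 ± 0.66, SE) and 1.51 on the scale of log2(FPKM + 0.1). HFD_HDCA over ND was 2.22 ± 0.70 (SE) by counts and -0.10 by FPKM, whereas HFD_HDCA against HFD was -1.98 ± 0.56 (SE) and -1.61. The ratio of CPM to FPKM, which reflects gene length and should be even across libraries, varied 15.7-fold for Slc22a27 and 1.15- to 1.56-fold for the 9 others. Its neighbours on both sides are close relatives (Slc22a26 and Slc22a19, Slc22a28 and Slc22a29), among which reads can be shared, so its level is uncertain. Reads aligned to several places made up 14.55 to 15.97% of the HFD_HDCA files, 13.27 to 13.96% of the HFD files and 16.59 to 19.44% of the ND files, and their part in the difference was not tested.

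**Figure D3:**
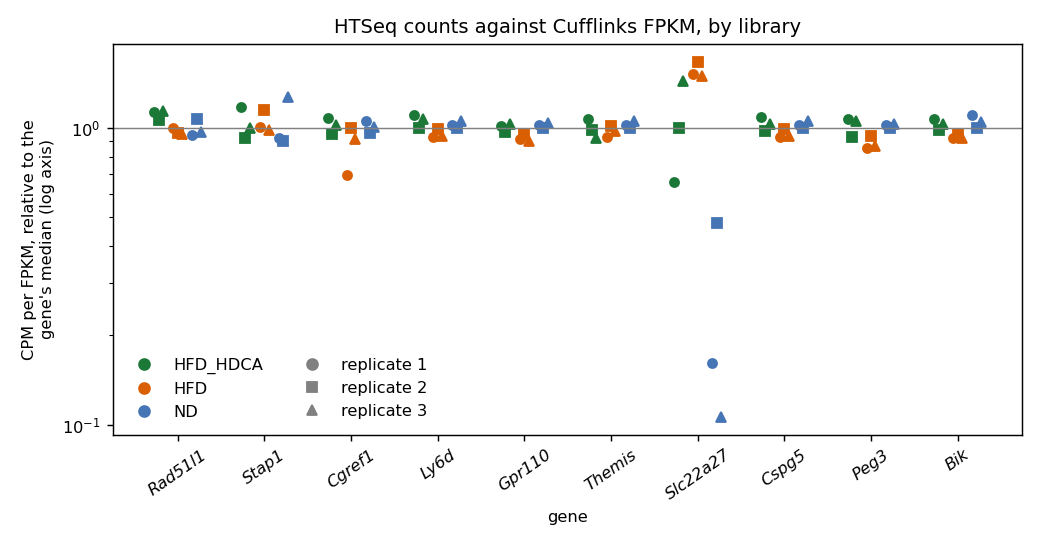
Ratio of CPM to FPKM in each library, relative to the gene's median ratio (log axis), for the 10 genes; colour gives the diet and shape the replicate. The points of 9 genes spread at most 1.56-fold, while those of Slc22a27 spread 15.7-fold, with the ND libraries lowest.

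Among 13 tested relatives in the organic ion transporter family, edgeR called 1 higher and 2 lower in HFD_HDCA against HFD, beside 1.67% and 1.73% of all genes. Before adjustment 2 were above and 6 below (p under 0.05), and DESeq2 called 1 higher and 3 lower. In HFD_HDCA against ND edgeR called 1 higher and 3 lower, beside 3.65% and 2.82% of all genes. There 3 were above and 5 below before adjustment, and DESeq2 called 1 higher and 4 lower. Slc22a5, the carnitine transporter, stood at 57.9, 115 and 111 CPM in HFD_HDCA, 28.0, 27.0 and 18.5 in HFD and 30.2, 45.5 and 20.1 in ND. It rose against HFD by 1.95 ± 0.35 on the log2 scale (SE, edgeR adjusted p = 0.0252), a call that ended without HFD_HDCA 3, HFD 2, HFD 3 or ND 1, with an adjusted p of up to 0.0848. It also rose against ND by 1.57 ± 0.35 (SE, adjusted p = 0.033), a call that ended without HFD_HDCA 2, HFD_HDCA 3, ND 1 or ND 3 (up to 0.135). Slc22a7, a transporter of organic anions in liver, was lowest on HDCA, at 11.6, 9.70 and 7.70 CPM in HFD_HDCA, 25.4, 46.7 and 39.0 in HFD and 38.0, 19.7 and 30.1 in ND. It fell by 1.94 against HFD (SE 0.29, adjusted p = 0.0118) and by 1.60 against ND (SE 0.29, adjusted p = 0.0149), the first call ending without HFD_HDCA 3 (0.0505) and the second without HFD_HDCA 3 or ND 1 (up to 0.0606).

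Slc22a28 and Slc22a30, rodent members of the same cluster, were highest on ND. Slc22a28 averaged 5.24 ± 1.52 CPM in HFD_HDCA, 10.53 ± 2.13 in HFD and 20.04 ± 2.45 in ND (SD, n = 3 each), and fell by 1.93 in HFD_HDCA against ND (SE 0.23, edgeR adjusted p = 0.00194). Its fall of 1.01 against HFD (adjusted p = 0.0426) held in 1 of the 9 fits without a library, the one without HFD 1, with an adjusted p of up to 0.126 in the others, and did not pass with only the 2 groups compared (0.114). Slc22a30 stood at 79.1 ± 9.99 CPM in HFD_HDCA against 152 ± 14.0 in ND (SD, n = 3 each), a fall of 0.95 (adjusted p = 0.00279). In HFD against ND edgeR called 0 of the 13, with 2 above and 2 below before adjustment (p under 0.05), and DESeq2 called 1 higher and 2 lower. Slc22a29, beside Slc22a27, averaged 1.32 ± 1.42 CPM in HFD_HDCA, 5.47 ± 2.04 in HFD and 1.205 ± 1.21 in ND (SD, n = 3 each) and was not called (edgeR adjusted p = 0.184 for HFD_HDCA against HFD and 0.339 for HFD against ND).

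Ly6d, on chromosome 15 from 74762056 to 74763567, was highest with HDCA, mainly in a single library. It stood at 25.7, 3.84 and 4.81 CPM in HFD_HDCA, 0.867, 2.78 and 2.03 in HFD and 0.416, 0.596 and 0.174 in ND. The groups did not overlap. HFD_HDCA 1, which held 425 reads against 66 and 80 in its replicates, is the library with the high Saa1, and its Lcn2, another acute phase gene, stood at 331 CPM against 3.66 and 4.03 in HFD_HDCA 2 and HFD_HDCA 3. HFD_HDCA averaged 11.5 ± 12.4 CPM against 0.395 ± 0.212 in ND (SD, n = 3 each), or 4.82 ± 0.94 on the log2 scale (SE) and 3.41 without HFD_HDCA 1. Against HFD it was 2.59 ± 0.78 (SE), and 1.202 without that library. HFD against ND gave 2.23 ± 0.998 (SE) and rested on 8, 11 and 3 reads in ND. Marker sums of several other cell types were also highest in HFD_HDCA 1 among its group: 10.7 CPM against 8.66 and 7.16 for B cells, and 17.2 against 5.58 and 4.57 for neutrophils. Cholangiocyte markers summed to 119.5 against 59.15 and 54.27. The same held for macrophages (889.5 against 564.8 and 472.7), stellate cells (439.2 against 329.6 and 298.6) and T and NK cells. It did not hold for endothelial cells (264.9 against 291.2 and 256.9) or hepatocytes (124200 against 133200 and 119000). In HFD the library with the most Ly6d, HFD 2, had the lowest B cell (3.23 CPM) and neutrophil (1.82) sums and the highest cholangiocyte sum (85.3). The part of any of these in the Ly6d difference was not tested. Among 7 tested genes of the Ly6 and uPAR family edgeR and DESeq2 called 0 in all 3 comparisons, with 1 above in each comparison against ND and 0 in HFD_HDCA against HFD before adjustment (p under 0.05).

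Rad51l1, on chromosome 12 from 79297282 to 79814690, was the member with the widest range. It stood at 23.9, 24.2 and 35.8 CPM in HFD_HDCA, 14.6, 10.9 and 7.92 in HFD and 0.781, 1.19 and 0.058 in ND, where the reads were 15, 22 and 1. The groups followed each other without overlap, HFD_HDCA above HFD above ND. HFD_HDCA averaged 28.0 ± 6.80 CPM against 0.677 ± 0.574 in ND (SD, n = 3 each), 41.3-fold higher (log2 fold change 5.33 ± 0.52, SE), with a summed-read ratio of 40.4 and an interval of 29.3 to 57.3. HFD stood 16.5-fold above ND (4.005 ± 0.52, SE), and the value ran from 3.49 to 4.66 over the 9 fits without a library. HFD_HDCA was 2.51-fold above HFD (1.33 ± 0.39, SE). The gene spans 517.4 kb with 15 merged exons of 3757 bases together in GENCODE M21, so that nearly all of its span is intronic, and gene counts do not say which exons the reads came from.

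Few other recombination genes were called. Of 11 tested, Rad51l3 (now Rad51d), whose protein acts in the same complex, was called, at 29.3, 29.2 and 27.3 CPM in HFD_HDCA, 17.8, 20.6 and 19.2 in HFD and 19.3, 18.3 and 20.5 in ND. It rose by 0.57 ± 0.10 on the log2 scale against HFD (SE, edgeR adjusted p = 0.017) and by 0.56 ± 0.10 against ND (SE, adjusted p = 0.0127). The first call ended without HFD_HDCA 3 or HFD 3 (up to 0.0633), in the FPKM tables (0.0852) and with only the 2 groups compared (0.0721), and the second without ND 1 or ND 2 (up to 0.0666). In HFD against ND edgeR and DESeq2 called 0 of the 11, with 1 above before adjustment (p under 0.05), and their median log2 fold change was 0.42 beside 0.02 over all genes.

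Bik, on chromosome 15 from 83526862 to 83544635, stood higher on HDCA than on either other diet. Its CPM was 12.96, 12.9 and 14.6 in HFD_HDCA, 3.90, 2.22 and 2.71 in HFD and 3.38, 4.82 and 6.59 in ND. The HFD_HDCA libraries were close together and above all others, and HFD overlapped ND. HFD_HDCA averaged 13.5 ± 0.94 CPM, against 2.94 ± 0.86 in HFD and 4.93 ± 1.61 in ND (SD, n = 3 each). That was 4.58-fold above HFD (log2 fold change 2.20 ± 0.26, SE) and 2.73-fold above ND (1.45 ± 0.25, SE), while HFD against ND gave -0.74 ± 0.27 (SE). Of 16 tested genes of the BCL2 family, 1 rose in HFD_HDCA against HFD: Bok, a pro-apoptotic relative of BAX, stood at 19.7, 14.5 and 14.4 CPM in HFD_HDCA against 9.32, 7.88 and 10.6 in HFD. Its log2 fold change was 0.81 ± 0.16 (SE, edgeR adjusted p = 0.029), and the call ended without HFD_HDCA 1, HFD_HDCA 3, HFD 2, ND 1 or ND 2 (up to 0.0884) and with only the 2 groups compared (0.0899). edgeR called 0 of the 16 in HFD against ND (1 above before adjustment, p under 0.05, 0 by DESeq2) and 0 in HFD_HDCA against ND (5 above and 1 below, 2 and 1 by DESeq2).

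Cgref1, on chromosome 5 from 30933143 to 30945480, was the member with the lowest mean. It stood at 1.33, 4.94 and 3.43 CPM in HFD_HDCA, 1.14, 1.82 and 2.03 in HFD and 0.416, 0.271 and 0.174 in ND. All ND libraries, with 8, 5 and 3 reads, lay below all others, and HFD_HDCA overlapped HFD. HFD_HDCA averaged 3.23 ± 1.81 CPM against 0.287 ± 0.122 in ND (SD, n = 3 each), 11.3-fold higher (log2 fold change 3.45 ± 0.54, SE). HFD was 5.79-fold above ND (2.49 ± 0.56, SE), and HFD_HDCA differed from HFD by 0.96 ± 0.44 (SE).

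Since Cgref1 was first found in rat cells as a gene that p53 induces, 20 genes of the p53 response were described beside it. In HFD_HDCA against ND 4 of the 20 rose and 0 fell by edgeR, beside 3.65% and 2.82% of all genes. Before adjustment 10 were above and 1 below (p under 0.05), and DESeq2 called 7 higher. The median log2 fold change was 0.52 beside 0.03 over all genes. Among those not called were the p53 targets Cdkn1a (0.19 ± 0.80, SE, edgeR adjusted p = 0.905) and Mdm2 (0.20 ± 0.12, SE, adjusted p = 0.318). Trp53 itself was also not called (-0.32 ± 0.12, SE, adjusted p = 0.126). Gadd45a, a stress-induced growth arrest gene, stood at 4.18, 5.58 and 4.15 CPM in HFD_HDCA, 4.06, 3.89 and 3.65 in HFD and 1.301, 1.08 and 1.79 in ND. It rose by 1.73 ± 0.24 in HFD_HDCA against ND (SE, adjusted p = 0.00412), and by 1.47 ± 0.24 in HFD against ND (SE, adjusted p = 0.0231), a call that ended without HFD 2, HFD 3, ND 1 or ND 2 (up to 0.0971). It was the 1 gene of the list called in HFD against ND. Sesn2, a sestrin that restrains mTORC1, averaged 17.2 ± 2.28 CPM in HFD_HDCA, 8.99 ± 0.47 in HFD and 9.19 ± 1.64 in ND (SD, n = 3 each).

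Sesn2 rose by 0.90 ± 0.16 against ND (SE, edgeR adjusted p = 0.0107, ending without ND 1 at 0.0617) and by 0.93 ± 0.16 against HFD (SE, adjusted p = 0.014, ending without HFD_HDCA 3 or HFD 3, up to 0.054). Ei24, an apoptosis-associated gene, averaged 384 ± 33.7 CPM in HFD_HDCA, 254 ± 35.5 in HFD and 230 ± 15.9 in ND (SD, n = 3 each). It rose against ND by 0.74 ± 0.13 (SE, adjusted p = 0.0119, ending without HFD_HDCA 3 or ND 1, up to 0.0749). Against HFD it rose by 0.59 ± 0.13 (SE, adjusted p = 0.0407), which held in 3 of the 9 fits without a library, with an adjusted p of up to 0.131, and did not pass in the FPKM tables (0.0526) or with only the 2 groups compared (0.139). Perp, a p53 target at cell junctions, rose against ND by 0.63 ± 0.12 (SE, adjusted p = 0.0149), ending without HFD_HDCA 3 or any single ND library (up to 0.0794).

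Peg3, on chromosome 7 from 6705960 to 6730419, shared the HDCA pattern of Bik. Its CPM was 24.0, 31.2 and 17.9 in HFD_HDCA, 6.17, 3.28 and 5.16 in HFD and 6.45, 6.23 and 4.80 in ND. The HFD_HDCA libraries lay above all others, and HFD overlapped ND. HFD_HDCA averaged 24.4 ± 6.67 CPM, against 4.87 ± 1.47 in HFD and 5.83 ± 0.90 in ND (SD, n = 3 each). That was above HFD by 2.32 ± 0.26 on the log2 scale (SE), with a summed-read ratio of 5.05 and an interval of 4.43 to 5.78, and 4.18-fold above ND (2.06 ± 0.26, SE), while HFD against ND gave -0.26 ± 0.27 (SE). Its imprinted neighbours were silent or nearly so: Usp29, which lies 97 bases from Peg3, had 0 reads in all 9 libraries, and Zim1 had 0, 4 and 1 reads in HFD_HDCA, 0, 1 and 1 in HFD and 1, 0 and 1 in ND.

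Of 13 other imprinted genes tested, 1 was called in HFD_HDCA against ND (1 above and 4 below before adjustment, p under 0.05, and 1 higher and 2 lower by DESeq2): Igf2r, the receptor that clears IGF2, stood at 24.8, 33.9 and 34.7 CPM in HFD_HDCA against 50.8, 53.01 and 39.4 in ND and fell by 0.62 on the log2 scale (SE 0.15, edgeR adjusted p = 0.0383). The call held in 3 of the 9 fits without a library, reached 0.15 at most, and did not pass in the FPKM tables (0.0895) or with only the 2 groups compared (0.0542). Sgce, named after its values were seen, averaged 8.52 ± 0.87 CPM in HFD_HDCA, 5.022 ± 1.3 in HFD and 4.87 ± 1.28 in ND (SD, n = 3 each). edgeR did not call it (adjusted p = 0.0709 against ND and 0.101 against HFD), but DESeq2 did (0.032 and 0.0472), as did edgeR against ND with only the 2 groups compared (0.0485). edgeR called 0 of the 13 in HFD against ND (2 below before adjustment, p under 0.05, and 1 lower by DESeq2) and 0 in HFD_HDCA against HFD (1 above and 1 below, the same numbers by DESeq2). The list's median log2 fold change in HFD_HDCA against ND was -0.35, beside 0.03 over all genes.

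**Figure D4:**
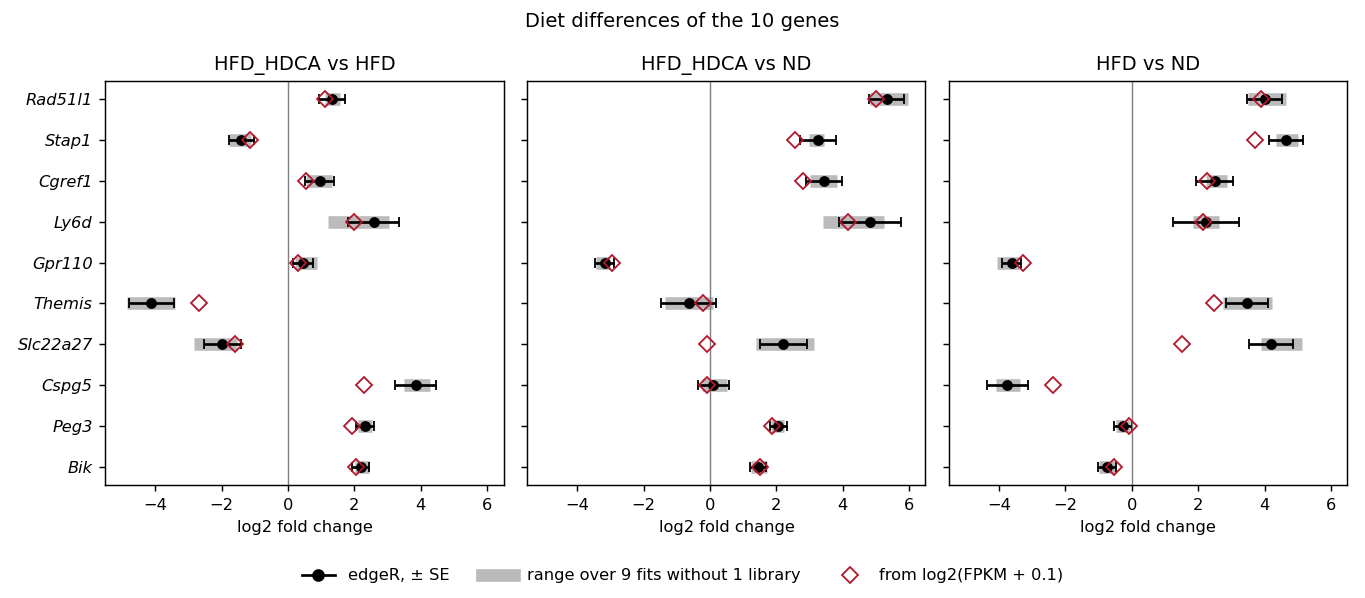
Log2 fold change of each gene in HFD_HDCA against HFD, HFD_HDCA against ND and HFD against ND: black points are edgeR values with bars of 1 SE, grey bands the range over 9 fits that each leave out 1 library, and open diamonds the difference in mean log2(FPKM + 0.1). Counts and FPKM part most for Slc22a27 against ND (4.204 and 1.51 for HFD), and the grey band of Ly6d reaches down to 1.202 against HFD.

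On the length-corrected scale the order of the 10 genes changed with diet. In HFD_HDCA Ly6d (15.5 ± 16.3 FPKM), Bik (12.3 ± 0.92) and Rad51l1 (9.98 ± 2.21) led, their libraries overlapping in neighbouring pairs, and all Rad51l1 values exceeded those of Peg3, the next at 2.49 ± 0.86 (SD, n = 3 each). Themis was last at 0.058 ± 0.046 FPKM. In HFD the order was headed by Slc22a27 (4.76 ± 0.69), Rad51l1 (4.56 ± 1.25) and Stap1 (3.14 ± 1.62), each overlapping the next down to Gpr110 (0.434 ± 0.204), and Cspg5 was last at 0.055 ± 0.030 without overlap. In ND Gpr110 (4.83 ± 0.28) and Bik (4.44 ± 1.53) led with overlap, Slc22a27 (1.61 ± 0.24) followed apart from both sides, and from Cspg5 (0.701 ± 0.137) to Themis (0.086 ± 0.060) each of the other 7 overlapped the next. The place of Slc22a27 in this order is uncertain, since its counts and FPKM parted between libraries and its ND libraries held 5, 17 and 4 reads. Bik was second in HFD_HDCA and in ND.

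Pairs of members were compared over the 9 libraries by Pearson's r of log2 CPM, which reflects the 3 diet groups more than 9 independent points and is given as a description. Stap1 and Gpr110 were the most opposed (r = -0.96), then Cspg5 and Themis (-0.89). Rad51l1 and Cgref1 (0.90) and Peg3 and Bik (0.90) were the most alike. Stap1 and Bik (-0.14), Gpr110 and Bik (-0.05) and Cspg5 and Ly6d (0.03) showed little relation.

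Among 11002 other genes of at least 1 CPM, the 3 most like each member in the same measure were taken. For Stap1 these included Xpot (r = 0.98), which encodes the tRNA exporter, and Dntt (0.96), the DNA polymerase that adds bases at V(D)J joints, at 3.02 ± 0.25 CPM in HFD_HDCA, 5.05 ± 3.83 in HFD and 0.492 ± 0.050 in ND (SD, n = 3 each). For Themis they were Slc26a4, Rmnd5b and Maob (0.96 to 0.97), where the amine oxidase gene Maob stood at 205 ± 7.57 CPM in HFD_HDCA, 315 ± 56.2 in HFD and 215 ± 11.6 in ND. For Gpr110 they were Atrnl1 (0.99), the carboxylesterase gene Ces2a (0.97) and Ip6k2 (0.97), with Ces2a at 132 ± 33.5 CPM in HFD_HDCA, 133 ± 18.5 in HFD and 480 ± 15.5 in ND.

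For Cspg5 the list was Grina (0.98), Cadm4 (0.96) and Mup2 (0.96), a urinary protein gene that shares reads with its family. For Slc22a27 it was Serpinb8 (0.97), Kcnk10 (0.96) and Gpr98 (0.94), the adhesion receptor gene described above. Ly6d went with Fancc (0.97), Chmp2b (0.97) and Ube2l6 (0.97), and Rad51l1 with Dusp22 (0.97), Zfp386 (0.97) and Rtn4 (0.96), the last at 130 ± 22.4 CPM in HFD_HDCA, 108 ± 5.09 in HFD and 45.4 ± 6.28 in ND (SD, n = 3 each). Cgref1 went with Fam131c (0.98), the chemokine gene Cxcl10 (0.97) and Mgll (0.96), which encodes monoacylglycerol lipase. Peg3 went with Tmem136 (0.98), Sphk2 (0.96) and Zcwpw1 (0.96), and Bik with Vmo1, Maf1 and Nek8 (0.97 to 0.98), where Maf1, a repressor of RNA polymerase III, stood at 26.7 ± 1.13 CPM in HFD_HDCA, 14.6 ± 2.91 in HFD and 17.01 ± 0.42 in ND (SD, n = 3 each).

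Few of the genes next to the members on the chromosome were called, though a gene not called may still have moved. Of 40 protein-coding neighbours, the nearest pair on each side, 24 passed the low-count filter. In HFD against ND 1 of the 24 was called, higher, beside 0.477% of all genes called higher. This was Khk, the gene of liver fructokinase, next to Cgref1. It stood at 448, 527 and 549 CPM in HFD against 288, 265 and 267 in ND and rose by 0.89 ± 0.17 on the log2 scale (SE, edgeR adjusted p = 0.0325), in the direction of Cgref1. The call held in 3 of the 9 fits without a library, with an adjusted p of up to 0.163. Slc22a26 and Slc22a29, beside Slc22a27, were not called but moved in its direction. Their log2 fold changes were 1.95 and 2.16 in HFD against ND, and -0.45 and -2.05 in HFD_HDCA against HFD. Slc22a28, on the other hand, stood at -0.93 in HFD against ND, opposite to Slc22a27.

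In HFD_HDCA against HFD 3 of the 24 were called, all lower, where 1.73% of all genes were called lower. They were Slc22a28 beside Slc22a27, Ptprk beside Themis and Pacsin2 beside Bik. Ptprk, a receptor tyrosine phosphatase gene, stood at 45.9, 64.2 and 53.7 CPM in HFD_HDCA against 75.9, 87.0 and 82.9 in HFD (log2 fold change -0.59 ± 0.13, SE, edgeR adjusted p = 0.0424), in the direction of Themis but with a far smaller fold. Pacsin2, a membrane-bending protein gene, fell by 0.48 (SE 0.11, adjusted p = 0.0426) while Bik was higher. Ptprk and Pacsin2 held their calls in 2 and 1 of the 9 fits without a library, with an adjusted p of up to 0.129 and 0.131, and did not pass with only the 2 groups compared (0.112 and 0.134). In HFD_HDCA against ND only Slc22a28 was called among the 24, and it was lower, beside 2.82% of all genes. Slc22a27 itself was not called there and its groups overlapped, with a log2 fold change of 2.22 by counts and -0.10 on log2(FPKM + 0.1).

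**Figure D5:**
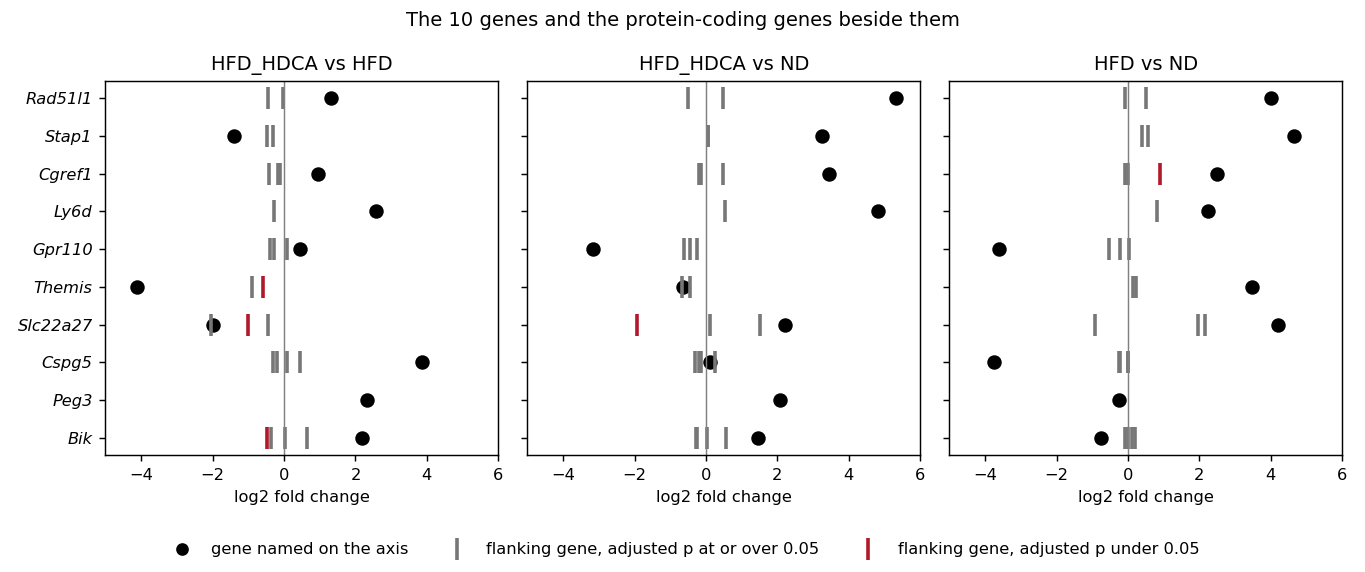
Log2 fold change (edgeR) of the 10 genes (black points) and of their nearest tested protein-coding neighbours (ticks; red where the adjusted p was under 0.05) in HFD_HDCA against HFD, HFD_HDCA against ND and HFD against ND. Apart from the relatives of Slc22a27, the neighbours lie within 0.89 of 0, while the named genes lie up to 5.33 away.

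Across the lists of relatives as a whole, 134 genes were tested. In HFD against ND 2 of them rose (1.49%), beside 0.477% of all genes. In HFD_HDCA against HFD 5 rose (3.73%) and 3 fell (2.24%), beside 1.67% and 1.73% of all genes, and in HFD_HDCA against ND 6 rose (4.48%) and 5 fell (3.73%), beside 3.65% and 2.82%.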

How the data were processed

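Gene levels were taken from tables that the authors deposited for each liver library. Per the labels, the authors counted reads by gene with HTSeq, and these deposited counts are whole numbers, not normalized. The tables' names include "antisense", and the strand setting behind it is not given in the sources used here. Per the file headers, the second deposited table of each library holds Cufflinks FPKM, corrected for transcript length and library size. The submitters' processing notes list TopHat 1.3.2 and Cufflinks 2.0.2, and mm10 as build, without the part each played. Genes listed more than once in an FPKM table were summed, and genes not found in all 9 FPKM tables were left out of the FPKM fits; 2 of these tables, ND 1 and HFD 1, hold some symbols as dates.

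The members and the lists of relatives, markers and neighbours were chosen with earlier results of these data known. Counts were fitted in R 4.3.3 with edgeR 4.0.16 (filterByExpr with a minimum count of 10, TMM factors, robust quasi-likelihood F test, all 9 libraries in 1 model of diet). P-values were two-sided and adjusted by Benjamini-Hochberg over 12587 genes, with a call at an adjusted p under 0.05, and standard errors follow from the F statistic. An exact permutation test of 3 libraries against 3 cannot go below p = 0.1, so a gene's own 6 values carry no call. The pipeline was tested on simulated data. Named by rule were all 10 members, the 3 genes most alike by Pearson's r of log2 CPM (prior count 2), called relatives (up to 4 a list and comparison, by smallest p) and the 2 nearest genes on each side. Of the genes taken by this rule, 1 is not reported here. Alternatives were DESeq2 1.42.0, other scaling and filters, the compared groups alone, the replicate block, leaving out libraries, and limma 3.58.1 on log2(FPKM + 0.1). Every pair of replicates differed beyond counting noise, so none was merged. Positions are mm10 as in the deposited tables, exons are from GENCODE M21, and promoters from RefSeq GRCm38.p6.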

Additional observations from a re-analysis of the deposited data

How the results depend on the processing

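Over the settings tried, DESeq2 called more genes, 380 in HFD against ND, 1085 in HFD_HDCA against HFD and 1398 in HFD_HDCA against ND, where edgeR called 120, 428 and 815. Without both HFD 1 and HFD_HDCA 1 edgeR called 576 genes in HFD against ND and 977 in HFD_HDCA against HFD, and with only the 2 groups compared 134 in HFD_HDCA against HFD. Members called by DESeq2 in HFD_HDCA against HFD numbered 7, against 4 by edgeR. Relatives called by DESeq2 numbered 7, 15 and 20 in the same order of comparisons, against 2, 8 and 11 by edgeR. They numbered 6 in HFD against ND without HFD 1 and HFD_HDCA 1, and in HFD_HDCA against HFD 4 with only the 2 groups compared and 3 in the FPKM tables with no filter. The cause of these moves was not tested.

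Leaving out 1 library at a time gave 32 to 226, 127 to 672 and 196 to 1213 genes called, 2 to 7, 4 to 5 and 6 to 8 members, and 1 to 4, 1 to 8 and 3 to 13 relatives, in HFD against ND, HFD_HDCA against HFD and HFD_HDCA against ND. Signs turned only in HFD_HDCA against ND and only for 3 members whose groups overlapped there. Cspg5 turned to -0.085 with the replicate block, -0.229 without HFD_HDCA 1, -0.095 without HFD_HDCA 2, -0.046 without ND 1 (0.532 at most, without HFD_HDCA 3), -0.228 without HFD 1 and HFD_HDCA 1, and -0.093 on log2(FPKM + 0.1) with and without the filter. Themis turned to 0.093 without ND 1, and reached -1.364 without HFD_HDCA 3. Slc22a27 turned to -0.101 on log2(FPKM + 0.1) with and without the filter and to -0.040 with a pseudocount of 1. The signs of all 10 members held in the other 2 comparisons under every setting run. The members were picked for diet changes in these same data, so their signs and calls that held are no support.

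Same-numbered libraries deviated from their group means with correlations of -0.146 to 0.154, so the numbers were not taken to pair the libraries. With the replicate block 82, 328 and 715 genes, 4, 4 and 6 members and 2, 8 and 14 relatives were called in HFD against ND, HFD_HDCA against HFD and HFD_HDCA against ND. Of the relatives and neighbours named as called, edgeR no longer called with the block Gadd45a and Khk in HFD against ND (adjusted p = 0.0559 and 0.0596), Ei24 and Pacsin2 in HFD_HDCA against HFD (0.0598 and 0.0621) and Igf2r in HFD_HDCA against ND (0.0506). Depth limits the near-absent values: a count of 0 still allows up to 3 reads, so differences of a few reads between libraries cannot be read.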
